A study of Mus musculus with 4 samples.

Results

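Cadherins are adhesion proteins of the cell surface, and the classical cadherins with the non-clustered protocadherins form a set of single genes whose combinations differ between classes of brain cells. All genes with a symbol of Cdh plus a number, or of Pcdh plus a number with or without an x, were taken, which gave 35 of the 33696 genes in the files. They comprise 5 type I classical cadherins, 13 type II classical cadherins, 5 atypical cadherins, 4 delta-1 protocadherins, 5 delta-2 protocadherins and 3 other non-clustered protocadherins. Nuclei of the cortex of 4 wild-type C57BL/6JRj female mice of about 12 weeks were profiled by single-nucleus RNA sequencing, which reads the RNA of single isolated nuclei. Of these mice 2 were non-pregnant controls, and 2 were taken at embryonic day E13.5 after timed mating; the labels call the samples biological replicates. The tissue was microdissected, and the sources do not name the cortical area.

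Classical cadherins bind their like on the neighbouring cell through calcium-dependent extracellular domains and hold the actin skeleton through catenins. Type I cadherins give strong general adhesion, whereas type II cadherins are expressed in restricted groups of neurons, where several of them are known to steer sorting and synapse choice. Delta protocadherins adhere more weakly, and several bind the WAVE complex, which drives actin branching. In the cortex these families are known for layer-specific, area-specific and interneuron-specific expression.

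The 4 libraries held 6357 to 6932 barcodes and 97875766 to 116860425 unique molecular identifiers (UMIs, counted RNA molecules), and 25033 nuclei were analysed. The members were left out of the genes used for clustering, but not out of the earlier step that scored doublets. Clusters were grouped into types by markers, and each type name below means that the nuclei resemble that type. Of these, 15 types had at least 50 nuclei in every library. They are 7 excitatory types, namely L2/3, L4/5, L5 and L6 intratelencephalic (IT), L5 extratelencephalic (ET), L5/6 near-projecting (NP) and L6 corticothalamic (CT) neurons, then Pvalb, Sst, Vip and Lamp5 interneurons, astrocytes, oligodendrocytes, oligodendrocyte precursors and a cluster led by Inpp5d. The Inpp5d cluster had the highest level of all 7 microglial markers. Its low depth, with none of these markers among its leading genes, kept it from being named. Levels are given as CPM, the UMIs of a gene scaled to a common total for each type and library. Between 42 and 61 barcodes of a library also occurred in another library. A list of 5 red blood cell markers summed higher in both pregnant libraries in each of the 8 types with a called member (9.05 and 20.5 CPM against 92.5 and 92.4 CPM in the Inpp5d cluster), and its part in the results was not tested. Free RNA was gauged by Slc17a7, an excitatory vesicular transporter, which reached 7.87% to 21.2% of its mean excitatory level in the non-neuronal types.

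Of the 35 members, 25 reached 20 CPM in at least 1 of 16 types (the 15 above plus vessel cells), and 16 of these were at least 4 times above their median over the types in the highest type. The highest type of the 25 was excitatory for 8 members, inhibitory for 4 and non-neuronal for 13. Levels are compared along 1 gene across types, since nuclear 3' counts also depend on how long a gene is. No test was run between types, so the following levels are descriptions with the spread over the 4 libraries.

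**Figure D1:**
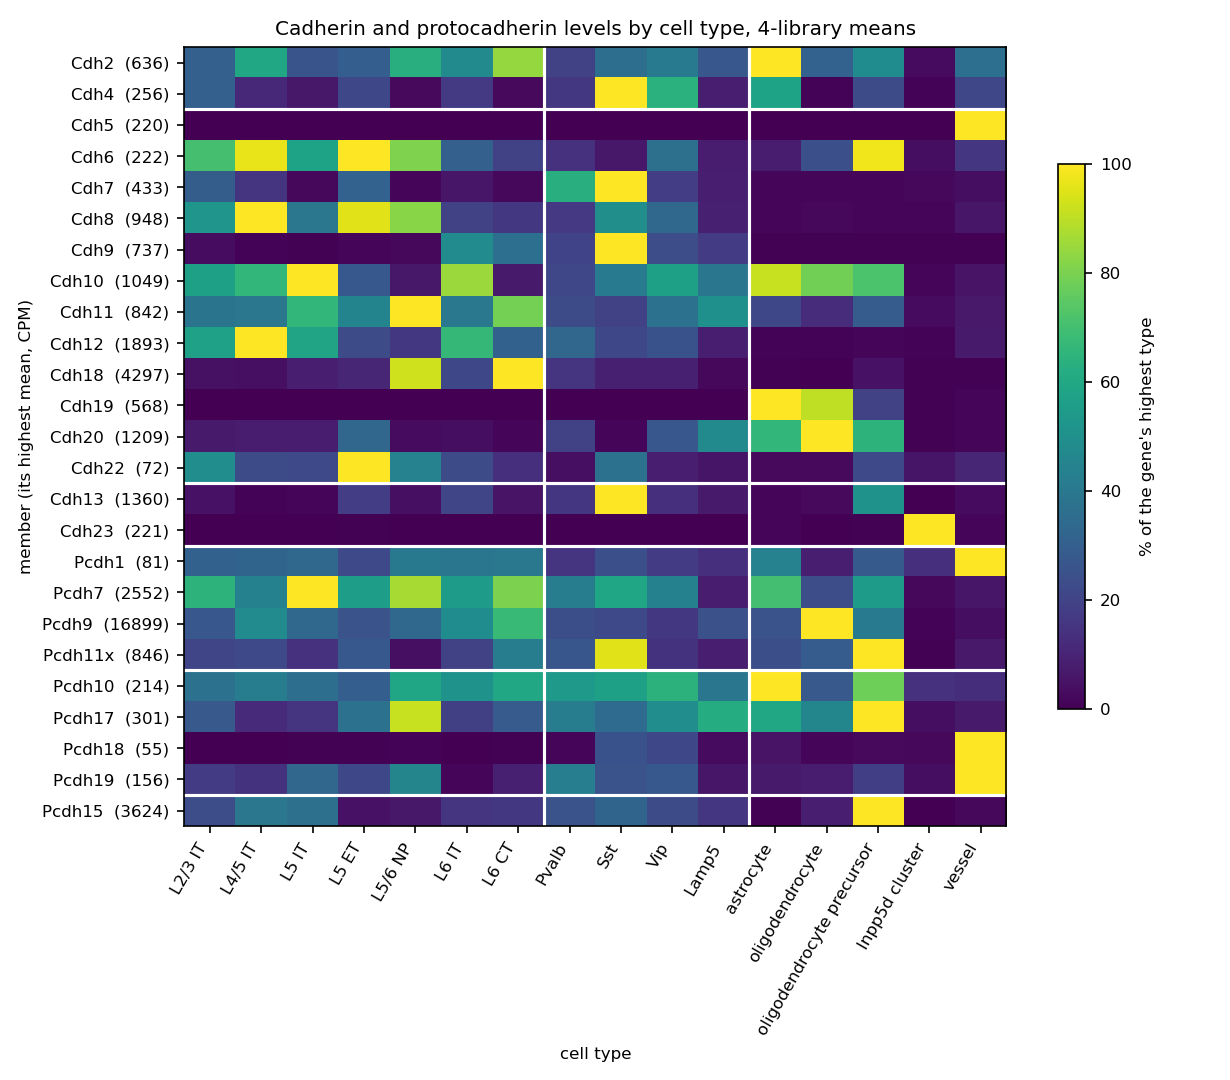
Mean level of the 25 members that reached 20 CPM in 16 types, as a percentage of each gene's highest type; rows are members with their highest mean in CPM, columns are types, and white lines divide the families and the excitatory, inhibitory and non-neuronal types. Cdh5, Cdh19 and Cdh23 have bright squares outside the neurons only, whereas Pcdh7 and Cdh2 are spread over nearly all types.

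Among type I cadherins, Cdh2 (N-cadherin, the general cadherin of neural tissue) had more than 100 CPM in 15 of the 16 types, and 18.1 CPM in the Inpp5d cluster. It was highest in astrocytes at 636 ± 65.1 CPM (SD, n = 4) and next in L6 CT neurons at 535 ± 38.8 CPM (SD, n = 4), with overlapping libraries. Cdh4 (R-cadherin) was far more restricted. In Sst interneurons, which inhibit dendrites, Cdh4 had 274, 288, 199 and 263 CPM in non-pregnant replicates 1 and 2 and pregnant replicates 1 and 2. All 4 values lay above the highest value of the next type, Vip interneurons at 163 ± 16.1 CPM (SD, n = 4), and L6 CT neurons had 6.18 CPM. Cdh1 (E-cadherin), Cdh3 (P-cadherin) and Cdh15 (M-cadherin), the cadherins of epithelia and muscle, had only 37, 11 and 42 UMIs over all analysed nuclei.

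Among type II cadherins, Cdh18 was high in L6 CT and L5/6 NP neurons, which are only some of the deep-layer types. In L6 CT neurons, which project to the thalamus, Cdh18 had 4324, 4722, 4114 and 4030 CPM in non-pregnant replicates 1 and 2 and pregnant replicates 1 and 2. In L5/6 NP neurons it had 4298, 5005, 3449 and 3186 CPM, so the ranges of the 2 types overlapped. The other deep-layer types, L5 IT, L5 ET and L6 IT, were each at least 4 times lower than both, with no overlap of libraries. The 32 nuclei that resembled L6b, the deepest layer, had 7234 to 7882 CPM in the 3 libraries that held any. L2/3 IT and L4/5 IT neurons had 200.4 ± 23.7 and 176 ± 6.83 CPM (SD, n = 4), with at most 229 CPM in any library.

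Cdh9, a type II cadherin known from the choice of synaptic partners in the hippocampus, was highest in Sst interneurons. In Sst interneurons Cdh9 had 608, 701, 983 and 657 CPM in the 4 libraries in the same order, and it had 357 ± 67.3 CPM in L6 IT and 270.1 ± 78.0 CPM in L6 CT neurons (SD, n = 4). The other interneurons followed, with 174 CPM in Vip, 148 CPM in Pvalb and 129 CPM in Lamp5. Among the other IT neurons L2/3 IT had 25.6 CPM, L4/5 IT 6.45 CPM and L5 IT 5.47 CPM. Cdh7 was highest in Sst at 433 ± 40.2 CPM and next in Pvalb interneurons at 273 ± 9.87 CPM (SD, n = 4), with no overlap of libraries. Cdh7 was below 10 CPM in L5 IT, L5/6 NP and L6 CT neurons and in astrocytes, oligodendrocytes and their precursors.

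Cdh8 and Cdh12 peaked in the middle layers. Cdh8 had 948 ± 81.2 CPM in L4/5 IT and 904 ± 62.8 CPM in L5 ET neurons (SD, n = 4), which overlapped, and 778 CPM in L5/6 NP against 152 CPM in L6 CT neurons. Cdh12 had 1893 ± 160 CPM in L4/5 IT neurons, above the 1264 ± 67.4 CPM of L6 IT neurons in all 4 libraries (SD, n = 4). Cdh22 was a low but restricted gene, with 75.0, 82.6, 67.1 and 63.8 CPM in L5 ET neurons, which send axons out of the forebrain. Its next type, L2/3 IT, had 28.1 to 43.5 CPM, below every L5 ET library.

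Cdh19 and Cdh20 marked glia. In astrocytes Cdh19 had 514, 530, 613 and 613 CPM, and in oligodendrocytes 488, 501, 539 and 521 CPM, so the 2 types overlapped. Oligodendrocyte precursors had 110 CPM and no neuronal type exceeded 0.972 CPM, a contrast that was present in every library. Cdh20 was highest in oligodendrocytes at 1209 ± 113 CPM, then in astrocytes at 801 ± 68.1 CPM and precursors at 783 ± 46.5 CPM (SD, n = 4). Unlike Cdh19, Cdh20 also reached 573 CPM in Lamp5 interneurons and 400.2 CPM in L5 ET neurons, while L6 CT neurons had 18.5 CPM.

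Cdh5 (VE-cadherin, the junction protein of endothelium) had 184, 254, 235 and 208 CPM in the 188 vessel nuclei, from 183 UMIs, and at most 0.691 CPM in any other type. Cdh10, Cdh6 and Cdh11 were broad. Cdh10 spanned IT neurons and glia, with 1049 CPM in L5 IT and 960 CPM in astrocytes, but only 69.2 and 75.4 CPM in L5/6 NP and L6 CT neurons. Cdh11 had the reverse order in those types, with 842 ± 18.4 CPM in L5/6 NP and 665 ± 28.7 CPM in L6 CT neurons (SD, n = 4), and the lowest neuronal level, 162 CPM, in Sst. Cdh6 was at 222 CPM in L5 ET neurons and 217 CPM in oligodendrocyte precursors, against 14.6 CPM in Sst. Cdh24 stayed below 20 CPM, at most 13.9 CPM in Lamp5 interneurons.

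**Figure D2:**
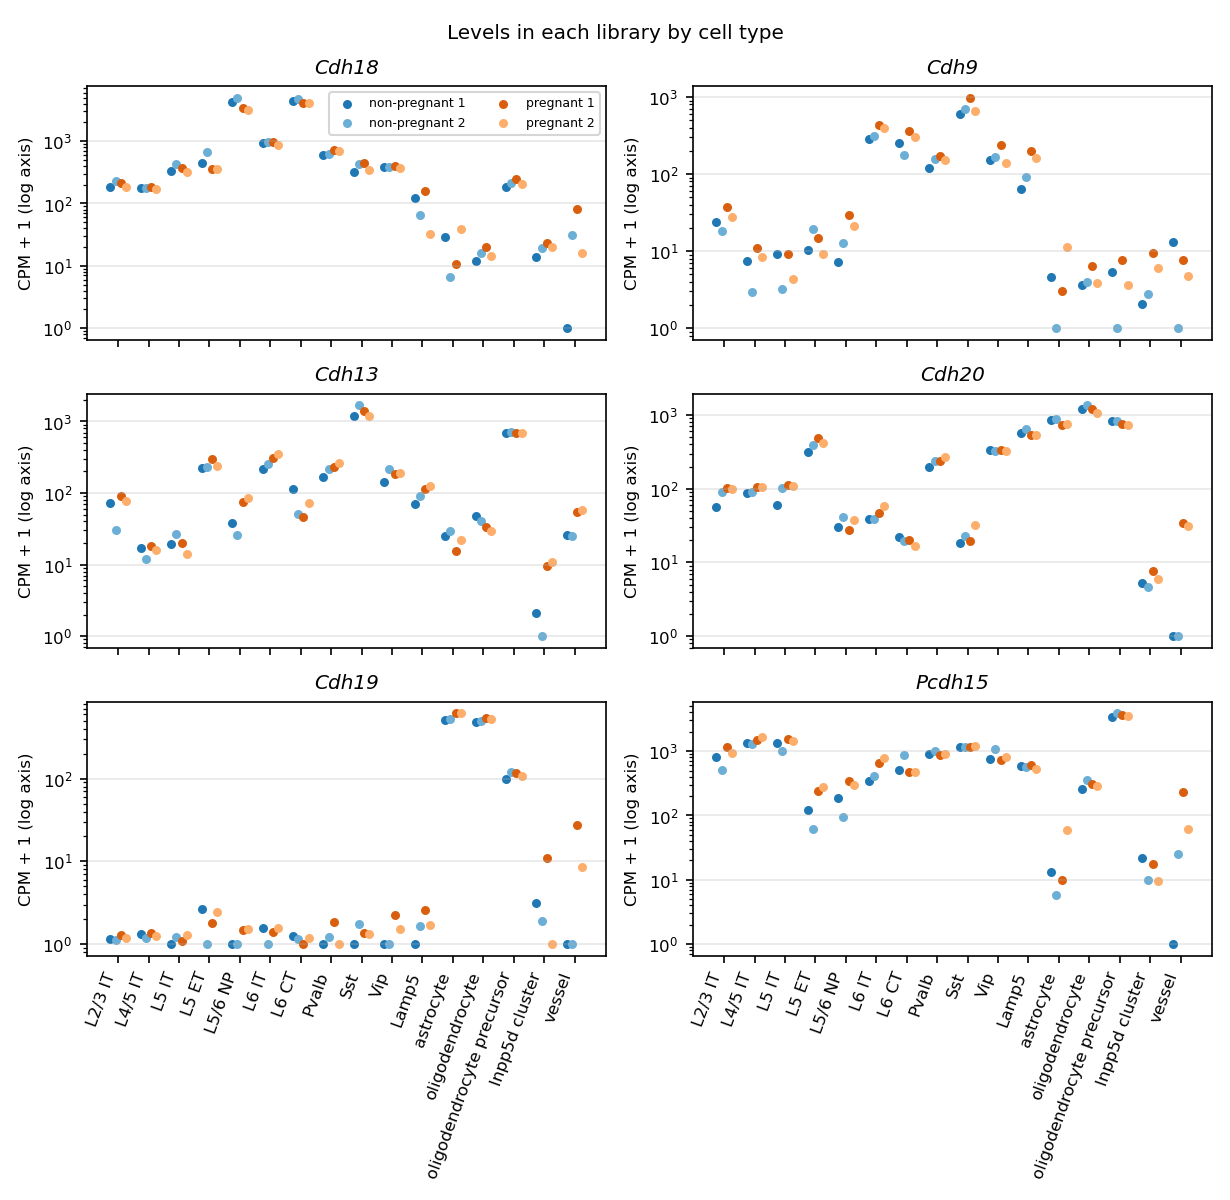
Level of 6 members in each of the 4 libraries by type, as CPM + 1 on a log axis; blue points are non-pregnant and orange points pregnant libraries. Cdh18 stands at 3186 CPM or more in L5/6 NP and L6 CT neurons, and Cdh19 is near the floor in every neuronal type.

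Of the 5 atypical cadherins, Cdh13 and Cdh23 reached 20 CPM. Cdh13 (T-cadherin, anchored by a lipid and lacking the catenin-binding tail) had 1188, 1672, 1390 and 1190 CPM in Sst interneurons. All 4 values exceeded the 691 to 721 CPM of oligodendrocyte precursors, the next type, and L4/5 IT neurons had 14.7 CPM. Cdh23, a tip-link protein of the hair cell, had 252, 209, 224 and 201 CPM in the Inpp5d cluster and at most 4.03 CPM in any other type. Its tip-link partner Pcdh15 was elsewhere, with 3624 ± 192 CPM in oligodendrocyte precursors (SD, n = 4), 1443 CPM in L4/5 IT neurons and 13.8 CPM in the Inpp5d cluster. Cdh16, Cdh17 and Cdh26, known from kidney, gut and other epithelia, had 6, 4 and 10 UMIs in all analysed nuclei.

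Among delta-1 protocadherins, Pcdh9 and Pcdh7 were found widely. Pcdh9 was highest in oligodendrocytes at 16899 ± 1458 CPM and next in L6 CT neurons at 11379 ± 938 CPM (SD, n = 4), with Vip interneurons lowest among neurons at 2714 CPM. Pcdh7 had 2552 CPM in L5 IT neurons and 204 CPM in Lamp5 interneurons. Pcdh11x, the X-linked member, had 867, 828, 839 and 852 CPM in oligodendrocyte precursors and 884, 904, 729 and 718 CPM in Sst interneurons, which overlapped, whereas L5/6 NP neurons had 36.1 CPM. Pcdh1 was highest in vessel cells at 81.0 ± 4.34 CPM (SD, n = 4) and between 11.1 and 32.6 CPM in neurons.

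Delta-2 protocadherins were mostly low. Pcdh10 varied least among neurons, from 63.5 CPM in L5 ET to 138 CPM in Vip neurons, and was highest in astrocytes at 214 CPM. Pcdh17 had 301 CPM in oligodendrocyte precursors and 275 CPM in L5/6 NP neurons, against 36.7 CPM in L4/5 IT neurons. Pcdh19, an X-linked gene whose loss causes epilepsy in females, had 70.7 ± 21.0 CPM in L5/6 NP and 66.9 CPM in Pvalb neurons but 2.79 CPM in L6 IT neurons, and vessel nuclei had 94.5 to 209 CPM from 113 UMIs. Pcdh18 had 55.4 CPM in vessel nuclei, from 43 UMIs, then 13.9 CPM in Sst and 11.9 CPM in Vip interneurons. Pcdh8, Pcdh20 and Pcdh12 did not reach 20 CPM in any of the 16 types.

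Levels outside neurons were set beside the Slc17a7 share of free RNA. In the Inpp5d cluster 19 of the 25 members stood at or below the Slc17a7 share of 17.6% of the mean excitatory level, and Cdh23 was the only member above 100 CPM there other than Pcdh9, which was below that share. The same held for 10 of the 25 in vessel nuclei, 7 in oligodendrocytes, 6 in astrocytes and 4 in oligodendrocyte precursors. Cdh8, Cdh9 and Cdh12 were at or below it in all 5 of these types. The Slc17a7 share is 1 gauge among several: in oligodendrocyte precursors Camk2a stood at 4.84% and Nrgn at 64.9% of their excitatory level. Whether these low levels are free RNA was not tested.

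The members were also counted as a combinatorial code. For each of the 55 pairs among the 11 neuronal types, members were counted whose mean differed at least 4 times, with every library of 1 type above every library of the other. The median was 5 of the 25 members per pair, and 1 pair, Pvalb and Vip, had 0. L2/3 IT and L4/5 IT neurons differed by Cdh13 alone, and L4/5 IT and L5 IT neurons by Cdh7 alone. The highest count, 11, was reached by Sst against Lamp5, by L5/6 NP against L6 IT and by L5/6 NP against Pvalb neurons. The median was 5 for the 6 pairs of interneuron types, 5 for the 21 pairs of excitatory types and 6 for the 28 mixed pairs.

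Members that lie side by side in the genome often had different highest types. All 35 members matched RefSeq (GRCm38.p6), with 8 on chromosome 8, 5 each on chromosomes 14 and 15 and 2 on X. On chromosome 15, Cdh6, Cdh9, Cdh10, Cdh12 and Cdh18 follow each other with 0, 0, 0 and 1 protein-coding genes between them, yet the highest neuronal type was L5 ET for Cdh6, Sst for Cdh9, L5 IT for Cdh10, L4/5 IT for Cdh12 and L6 CT for Cdh18. Over the 11 neuronal types, which share libraries, log2 levels of the neighbours Cdh6 and Cdh9 correlated at -0.82, those of Cdh9 and Cdh10 at -0.12, of Cdh10 and Cdh12 at 0.49 and of Cdh12 and Cdh18 at -0.06. Of the other neighbours with no protein-coding gene between them, Cdh8 and Cdh11 correlated at 0.06, whereas Cdh19 and Cdh5 are near 0 CPM in neurons and their correlations are not read.

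The promoter windows of these neighbours are shown because the genes lie together and differ in expression, and those of Cdh8 and Pcdh19 because both changed in excitatory neurons of pregnant mice. Each runs from 250 bases before to 50 after the start, 5′ to 3′ on the gene's strand, from RefSeq on GRCm38.p6, with CG dinucleotides in capitals. They lie at chr15:13173626-13173925 (minus strand, Cdh6), chr15:16728665-16728964 (plus, Cdh9), chr15:18820079-18820378 (plus, Cdh10), chr15:21111202-21111501 (plus, Cdh12), chr15:23036213-23036512 (plus, Cdh18), chr8:99416422-99416721 (minus, Cdh8) and chrX:133688944-133689243 (minus, Pcdh19).
Cdh6: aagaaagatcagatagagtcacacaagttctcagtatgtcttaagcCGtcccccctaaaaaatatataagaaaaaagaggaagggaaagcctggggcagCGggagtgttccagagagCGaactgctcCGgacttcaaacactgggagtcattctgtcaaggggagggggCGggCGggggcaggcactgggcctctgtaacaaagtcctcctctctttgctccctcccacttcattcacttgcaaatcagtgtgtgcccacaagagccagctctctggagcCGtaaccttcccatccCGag
Cdh9: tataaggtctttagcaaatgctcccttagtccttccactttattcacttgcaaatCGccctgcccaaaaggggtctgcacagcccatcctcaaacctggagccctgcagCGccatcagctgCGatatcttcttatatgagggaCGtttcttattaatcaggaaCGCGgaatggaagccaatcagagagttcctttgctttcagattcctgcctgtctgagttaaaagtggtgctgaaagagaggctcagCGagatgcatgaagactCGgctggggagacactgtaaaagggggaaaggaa
Cdh10: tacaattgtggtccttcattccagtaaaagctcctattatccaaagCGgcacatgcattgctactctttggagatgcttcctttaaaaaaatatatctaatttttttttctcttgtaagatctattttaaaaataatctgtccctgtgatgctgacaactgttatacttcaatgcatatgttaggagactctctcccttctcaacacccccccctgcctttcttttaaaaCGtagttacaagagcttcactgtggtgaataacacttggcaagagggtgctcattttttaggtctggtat
Cdh12: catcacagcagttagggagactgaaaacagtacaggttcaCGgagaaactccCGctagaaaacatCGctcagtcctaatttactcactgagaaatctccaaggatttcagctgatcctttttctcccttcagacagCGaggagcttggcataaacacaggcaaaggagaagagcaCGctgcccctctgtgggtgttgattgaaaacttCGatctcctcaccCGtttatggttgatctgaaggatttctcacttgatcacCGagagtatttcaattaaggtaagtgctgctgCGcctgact
Cdh18: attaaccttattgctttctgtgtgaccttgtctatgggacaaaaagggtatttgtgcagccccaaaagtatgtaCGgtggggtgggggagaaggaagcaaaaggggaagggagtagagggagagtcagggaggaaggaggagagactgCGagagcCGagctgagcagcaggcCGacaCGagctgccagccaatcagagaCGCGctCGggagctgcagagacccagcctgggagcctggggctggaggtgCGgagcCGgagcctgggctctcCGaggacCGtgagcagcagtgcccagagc
Cdh8: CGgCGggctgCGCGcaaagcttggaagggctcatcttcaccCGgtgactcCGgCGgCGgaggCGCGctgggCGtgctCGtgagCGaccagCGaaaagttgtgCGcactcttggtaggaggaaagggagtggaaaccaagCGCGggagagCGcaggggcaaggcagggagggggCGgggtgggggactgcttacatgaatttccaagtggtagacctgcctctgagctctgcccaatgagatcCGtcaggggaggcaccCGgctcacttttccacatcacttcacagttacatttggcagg
Pcdh19: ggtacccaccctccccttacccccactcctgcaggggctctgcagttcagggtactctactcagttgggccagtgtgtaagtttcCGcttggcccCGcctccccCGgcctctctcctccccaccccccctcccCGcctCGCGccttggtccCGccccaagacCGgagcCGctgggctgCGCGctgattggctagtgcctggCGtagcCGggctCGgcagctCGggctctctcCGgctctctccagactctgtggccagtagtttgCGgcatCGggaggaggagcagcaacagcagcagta

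Of the 35 members, 22 had a promoter in the table. The neighbours on chromosome 15 held 8, 8, 2, 9 and 12 CG dinucleotides in the order shown, against 21 for Cdh8 and 18 for Pcdh19 and a median of 7 over 27025 promoters with 1 window per gene. The median of the 22 members was 13. The letters GGGCGG, or their reverse complement, occurred in 9 of the 22 members, among them Cdh6, Cdh8 and Pcdh19, and in 35.9% of all promoters. TATAAA was found in Pcdh8 and Pcdh15 and in 14.2% of all promoters, and ACAAAG in 4 members, among them Cdh6, and in 18.7% of all. TGACGTCA and TGANTCA occurred in 0 of the 22 members and in 1.88% and 7.93% of all promoters. These counts describe letters in the windows and not sites in use.

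Pregnant and non-pregnant mice were then compared gene by gene with edgeR's quasi-likelihood test on summed counts, and a member was called at a Benjamini-Hochberg adjusted p below 0.05 over all genes of that sum. In the sum over all nuclei 30 members were tested and 1 was called, where 1.19% of all genes were called. That member was Pcdh19, with 23.4 and 21.8 CPM in the non-pregnant and 37.7 and 32.6 CPM in the pregnant libraries. The groups did not overlap, as in 19 of the 30 members tested, and the log2 fold change was 0.63 (SE 0.11, adjusted p = 0.0304 by edgeR). DESeq2 called 5 members here, and no share of all genes called by DESeq2 is set beside this or later DESeq2 counts. The Pcdh19 call was lost without pregnant replicate 1 (0.47, adjusted p = 0.532 by edgeR), without pregnant replicate 2 (0.76, adjusted p = 0.117 by edgeR) and with equal nuclei of each type from each library (0.47, adjusted p = 0.0804 by edgeR).

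The next members in the sum over all nuclei did not pass. Cdh20 had 137 and 156 CPM against 197 and 189.5 CPM in pregnant mice (log2 fold change 0.39, SE 0.09, adjusted p = 0.0715 by edgeR). Cdh6 had 148 and 167 CPM against 127 and 123 CPM (-0.35, SE 0.08, adjusted p = 0.0895 by edgeR), and Cdh13 had 108 and 112 CPM against 148 and 135 CPM (0.35, SE 0.08, adjusted p = 0.0948 by edgeR). The median log2 fold change of the 30 members was 0.13, beside 0.01 for all genes tested. In a sum over nuclei of many types, a change in the mix of types and a change within a type cannot be told apart.

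In the sum over excitatory neurons 2 of 27 members were called, both higher in pregnant mice, where 1.09% of all genes were called. Pcdh19 had 21.1 and 18.7 CPM against 36.9 and 31.8 CPM (log2 fold change 0.78, SE 0.12, adjusted p = 0.0248 by edgeR). Cdh20 had 82.0 and 97.7 CPM against 148 and 134 CPM (0.64, SE 0.11, adjusted p = 0.0453 by edgeR). The Cdh20 call ended with equal nuclei of each fine cluster from each library, at 0.33 (adjusted p = 0.341 by edgeR), and it also missed the threshold in 4 other alternatives (adjusted p at most 0.0841 by edgeR). Both calls ended without pregnant replicate 1 (adjusted p = 0.477 for Pcdh19 and 0.529 for Cdh20 by edgeR) and without pregnant replicate 2 (adjusted p = 0.146 and 0.190 by edgeR). In inhibitory neurons 0 of 25 members were called by edgeR, where 0.225% of all genes were called. There 2 members had an unadjusted p below 0.05, as had 7.14% of all genes, and DESeq2 also called 0 members.

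The effect differed between the 2 neuron classes for 2 members, where 0.93% of all genes passed the edgeR test of that difference within libraries. The excitatory sum mixes types whose shares differed between the groups, and the part of this mix was not tested. L2/3 IT made up 28.1% and 29.2% of non-pregnant against 17.9% and 21.3% of pregnant nuclei, and L5 ET 3.1% and 2.1% against 4.8% and 4.0%. With equal nuclei per fine cluster the excitatory log2 fold change was 0.33 for Cdh20 and 0.63 for Pcdh19. Pcdh19 had a log2 fold change of 0.78 in excitatory and 0.01 in inhibitory neurons, a difference of -0.76 (SE 0.12, adjusted p = 0.0122 by edgeR). Cdh20 had 0.64 in excitatory and -0.07 in inhibitory neurons, and its difference was -0.70 (SE 0.09, adjusted p = 0.0127 by edgeR). Without pregnant replicate 1 the count of such members was 0, and without pregnant replicate 2 it was 1.

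Within the 15 types, 16 of 319 tested pairs of a member and a type were called (5.02%), beside 0.84% of all gene-type pairs. Of the 16 pairs, 11 were higher and 5 lower in pregnant mice, and they involved 11 members and 8 types. In excitatory types 13 of 158 tested pairs were called, beside 1.37% of all gene-type pairs of these types. Calls over all genes also lay mostly in excitatory types. Of 1522 such calls L5 IT held 489, L5 ET 418 and L5/6 NP 239. In that order 270, 259 and 159 genes rose, and 219, 159 and 80 fell. In none of the 16 called member-type pairs did the libraries of the groups overlap. Non-overlap was also common among tested members as a whole, with 19 of 30 over all nuclei, 18 of 27 in excitatory and 9 of 25 in inhibitory neurons. No share of all genes without overlap stands beside these or later counts of it, so they are not read as particular to the members. Non-overlap is therefore not read as support for a call. The median log2 fold change over the 319 pairs was 0.07, and over all gene-type pairs 0.00098. No test compared the members with other genes, and 5 members were too low to be tested in any sum.

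**Figure D3:**
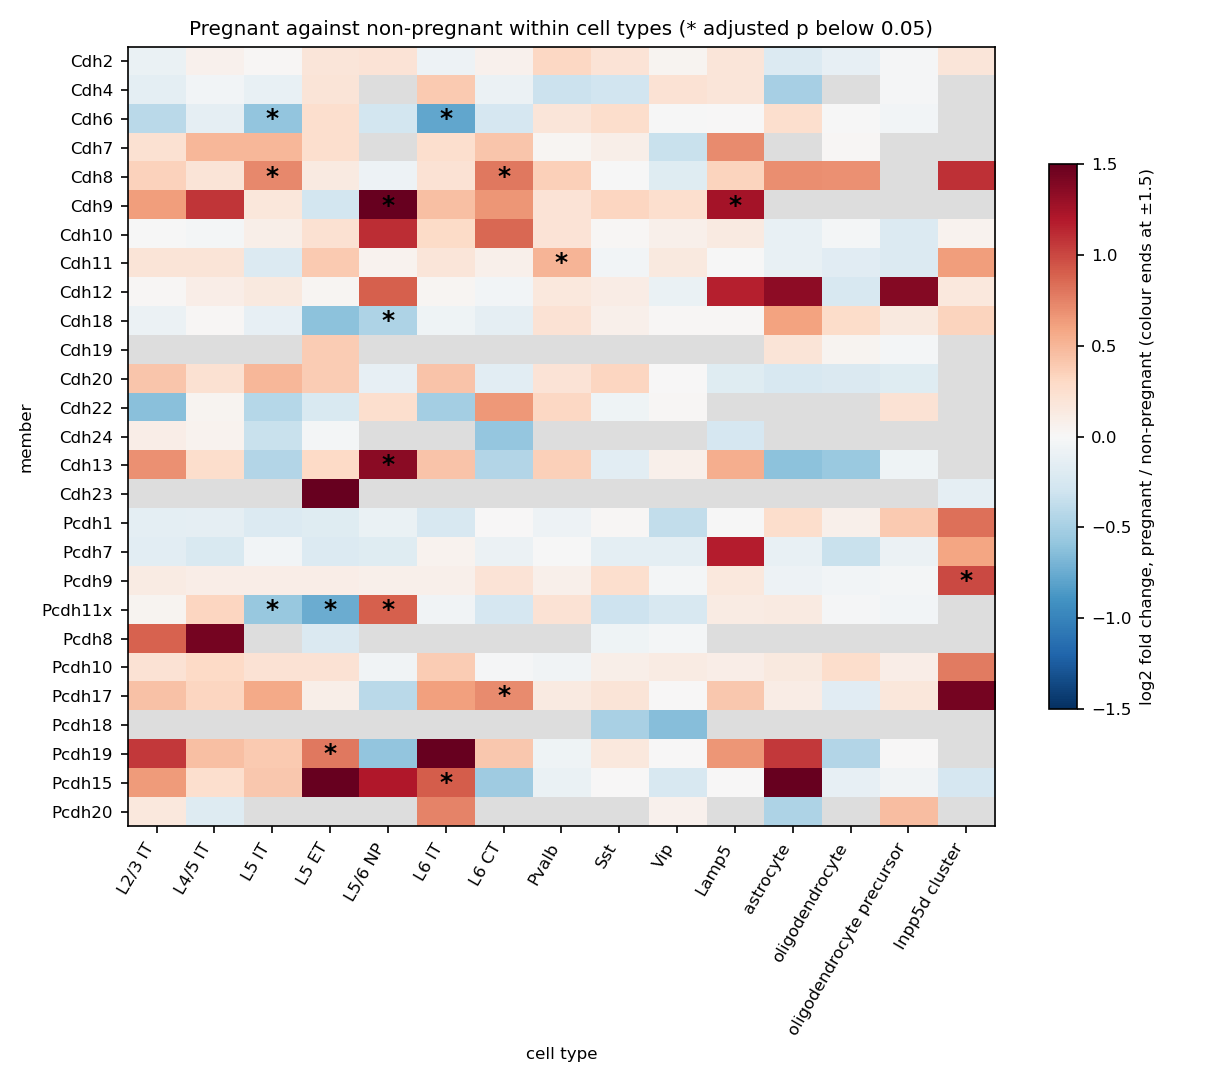
Log2 ratio of pregnant to non-pregnant libraries for each tested member (rows) in 15 types (columns), red for higher and blue for lower in pregnant mice, grey where the count filter left the member out; stars mark adjusted p below 0.05 in edgeR. The 16 stars fall in 8 types, and Pcdh11x has stars of both signs.

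L5 IT neurons, which connect the hemispheres, had 3 of 22 members called, where 3.61% of all genes were called. Cdh8 had 274 and 297 CPM against 460 and 477 CPM in pregnant mice (log2 fold change 0.72, SE 0.10, adjusted p = 0.000225 by edgeR). Cdh6 had 157 and 153 CPM against 95.5 and 110 CPM (-0.59, SE 0.09, adjusted p = 0.000769 by edgeR). Pcdh11x had 145 and 147 CPM against 102 and 93.9 CPM (-0.56, SE 0.10, adjusted p = 0.00173 by edgeR). All 3 had non-overlapping groups with close replicates, and 13 of the 22 tested members had non-overlapping groups.

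The L5 IT nuclei of the groups were not drawn from the same fine clusters. Fine clusters nearly absent from a library held 39.1% and 41.0% of the pregnant L5 IT nuclei. Without them Cdh8 kept its call at 0.48 (adjusted p = 0.0210 by edgeR), whereas Cdh6 and Pcdh11x had -0.26 and -0.35 (adjusted p = 0.296 and 0.149 by edgeR). The calls of Cdh6 and Pcdh11x also ended with no doublet filter (-0.27 and -0.30), with finer clusters (-0.31 and -0.36) and with the members among the clustering genes (-0.32 and -0.36). Cdh6 had an adjusted p of 0.0507 in edgeR without pregnant replicate 1, and Pcdh11x 0.0929 without pregnant replicate 2. The summed level of 7 L5/6 NP markers, Tshz2 among them, was 82.9 to 111 CPM in the non-pregnant and 757 to 855 CPM in the pregnant L5 IT libraries, with 5 of the 7 markers higher in both pregnant libraries and 0 of them absent. The 6 L6 IT markers summed to 711 and 283 CPM in the non-pregnant and 1177 and 1277 CPM in the pregnant libraries, with 2 of the 6 higher in both pregnant libraries and 1 at 0. The 6 L5 ET markers went from 16.9 and 14.4 to 55.95 and 51.0 CPM, with 3 of the 6 higher in both pregnant libraries and 1 at 0. The 6 L4/5 IT markers summed to 3424 and 4276 against 3340 and 3070 CPM, although 4 of the 6 were higher in both pregnant libraries and 2 lower. The 6 markers of L5 IT itself had 458 and 494 against 513 and 511 CPM, although 1 of the 6 was higher in both and 3 lower. The part of these differences in the 3 changes was not tested.

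In L5 ET neurons 2 of 25 members were called, where 3.03% of all genes were called. Pcdh11x had 295 and 291 CPM in non-pregnant against 177 and 165 CPM in pregnant mice (log2 fold change -0.74, SE 0.10, adjusted p = 0.000151 by edgeR). This fall passed under all 13 alternatives. Pcdh19 had 23.7 and 27.0 CPM against 46.8 and 38.01 CPM (0.79, SE 0.15, adjusted p = 0.00408 by edgeR) and had an adjusted p of 0.0794 in edgeR without pregnant replicate 1. The 7 L5/6 NP markers summed to 203 and 275 CPM in the non-pregnant and 506 and 697 CPM in the pregnant L5 ET libraries. The 6 L5 IT markers summed to 266 and 206 against 407 and 388 CPM, with 2 of the 6 higher in both pregnant libraries and 2 lower. Etv1, on that list, had a log2 fold change of 1.22 in L5 ET neurons. L5 IT neurons are lower in Pcdh11x and higher in Pcdh19 than L5 ET neurons (122 and 51.7 against 232 and 33.9 CPM). The 7 Sst markers had 141 and 154 against 212 and 210.0 CPM, and the 4 inhibitory class genes 5.10 and 2.70 against 8.95 and 17.1 CPM. The 6 markers of L5 ET itself had 462 and 497 against 616 and 574 CPM, although 2 of the 6 were higher in both pregnant libraries and 3 lower. The part of these lists in the 2 changes was not tested.

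L5/6 NP neurons, a sparse class with few long-range axons, had 4 of 19 members called, where 2.34% of all genes were called. Cdh13 rose from 36.7 and 25.2 CPM to 73.2 and 84.9 CPM (log2 fold change 1.35, SE 0.21, adjusted p = 3.13e-07 by edgeR) and passed under all 13 alternatives. For Cdh13, finer clusters and leaving out fine clusters nearly absent from a library gave the main value of 1.35 again and were no check. Cdh9 rose from 6.25 and 11.6 CPM to 28.3 and 19.9 CPM, on 20 and 96 UMIs in the 2 groups (1.496, SE 0.36, adjusted p = 0.00437 by edgeR). Pcdh11x rose from 24.2 and 27.1 CPM to 50.8 and 42.5 CPM (0.89, SE 0.24, adjusted p = 0.0138 by edgeR).

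Cdh18, which is high in this type and in L6 CT neurons, fell from 4298 and 5005 CPM to 3449 and 3186 CPM (log2 fold change -0.46, SE 0.13, adjusted p = 0.0206 by edgeR). With the replicate number as a block its adjusted p in edgeR was 0.252. The Cdh18 call also ended on leaving out 1 library, be it the second non-pregnant one (adjusted p = 0.533 by edgeR), pregnant replicate 1 (0.0681) or pregnant replicate 2 (0.423). The Cdh9 and Pcdh11x calls ended without non-pregnant replicate 1 or pregnant replicate 1, and Pcdh11x also without non-pregnant replicate 2. With no doublet filter 3 of the 4 calls ended, with adjusted p of 0.0946 for Cdh18, 0.157 for Cdh9 and 0.139 for Pcdh11x by edgeR. DESeq2 called 2 members in this type, and Pcdh11x had an adjusted p of 0.657 there. With equal nuclei per fine cluster Cdh9 had 0.87 (adjusted p = 0.603 by edgeR) and Pcdh11x 0.78 (adjusted p = 0.378 by edgeR). The type had 67 to 137 nuclei per library, and 6 L6 CT markers summed to 2523 and 2560 CPM in its non-pregnant and 2868 and 2765 CPM in its pregnant libraries. Of these 6, 3 were higher in both pregnant libraries and 2 lower. The 6 L4/5 IT markers had 225 and 188 against 401 and 254 CPM, with 2 higher in both and 2 lower. The part of both lists was not tested.

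In L6 IT neurons 2 of 22 members were called, where 0.509% of all genes were called. Pcdh15 rose from 342 and 411 CPM to 644 and 793 CPM (log2 fold change 0.91, SE 0.12, adjusted p = 0.00180 by edgeR). Cdh6 fell from 77.1 and 94.6 CPM to 50.4 and 50.6 CPM (-0.78, SE 0.13, adjusted p = 0.0107 by edgeR). Both passed under all 13 alternatives. Of these, leaving out fine clusters nearly absent from a library removed 0 nuclei of this type and was no check. Finer clusters gave nearly the same type, with 902 nuclei against 901, and were hardly a check. Pcdh15 then had 0.91 and Cdh6 -0.79. The 6 markers of this type summed to 1340 and 1598 CPM in the non-pregnant and 1948 and 2109 CPM in the pregnant libraries. The part of the markers in the Pcdh15 and Cdh6 values was not tested.

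In L6 CT neurons 2 of 22 members were called, where 0.697% of all genes were called. Cdh8 rose from 124 and 101 CPM to 184 and 199.8 CPM (log2 fold change 0.79, SE 0.10, adjusted p = 0.0117 by edgeR). Pcdh17, a delta-2 protocadherin known from corticobasal circuits, rose from 72.3 and 60.8 CPM to 109 and 105 CPM (0.71, SE 0.11, adjusted p = 0.0194 by edgeR). Both calls ended without pregnant replicate 1 (adjusted p = 0.153 and 0.367 by edgeR) or pregnant replicate 2 (adjusted p = 0.175 and 0.193 by edgeR). The 7 L5/6 NP markers summed to 98.0 and 24.4 CPM in the non-pregnant and 268 and 263 CPM in the pregnant L6 CT libraries. The 6 markers of L4/5 IT neurons, the type highest in Cdh8, summed to 105 and 71.9 against 168 and 185 CPM, with 2 of the 6 higher in both pregnant libraries. The 6 markers of L6 CT itself had 4487 and 4481 against 4252 and 4209 CPM. The part of these lists in both changes was not tested.

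L2/3 IT and L4/5 IT neurons, the 2 types with the most nuclei, had 0 of 24 members called each by edgeR, where 0.0537% and 0.0188% of all genes were called. In them 7 and 6 members had an unadjusted p below 0.05, as had 7.89% and 6.80% of all genes, and DESeq2 called 2 and 1 members.

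**Figure D4:**
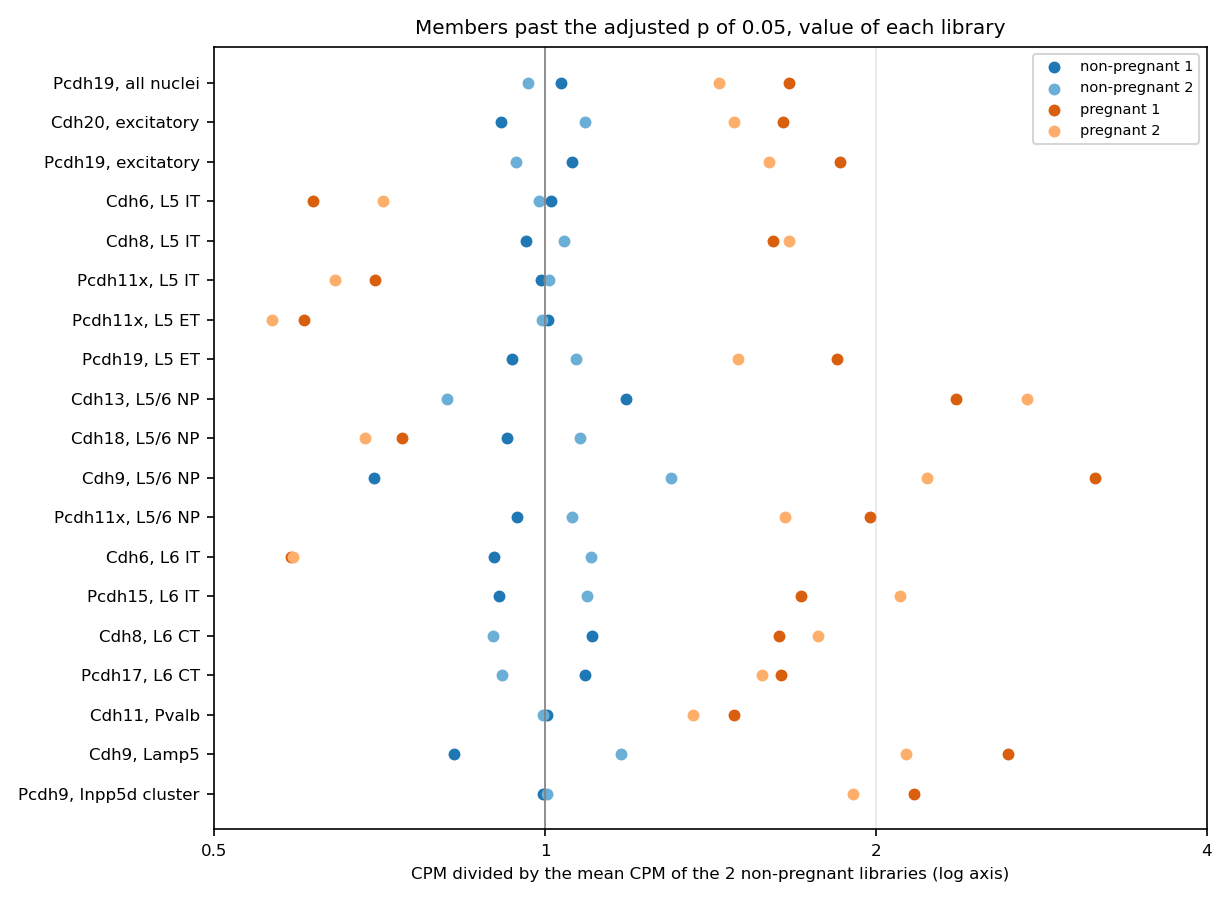
Each library's CPM divided by the mean of the 2 non-pregnant libraries, on a log axis, for the 19 called pairs of a member and a sum of nuclei; blue points are non-pregnant and orange points pregnant libraries. In every line both orange points lie on 1 side of both blue points, and the widest spread among non-pregnant libraries is that of Cdh9 in L5/6 NP neurons.

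Outside the excitatory types 3 members were called. In Pvalb interneurons, the fast-spiking cells, 1 of 21 members was called, where 0.306% of all genes were called. Cdh11 rose there from 162 and 161 CPM to 239.96 and 220.5 CPM (log2 fold change 0.51, SE 0.09, adjusted p = 0.0127 by edgeR), with an adjusted p of 0.617 in edgeR without pregnant replicate 1 and of 0.0785 in DESeq2. In these libraries the 6 L6 IT markers summed to 781 and 625 against 1071 and 897 CPM, with 1 of the 6 higher in both pregnant libraries. The 6 L4/5 IT markers summed to 2528 and 2557 against 2094 and 2095 CPM, with 1 higher in both and 1 lower. The 4 inhibitory class genes had 1036 and 1035 against 905 and 884 CPM, with 2 lower in both. Their part in the Cdh11 value was not tested. In Lamp5 interneurons 1 of 21 was called, where 0.282% of all genes were called. Cdh9 rose there from 62.9 and 89.2 CPM to 201 and 162 CPM (1.24, SE 0.18, adjusted p = 0.00200 by edgeR), and without the doublet filter it had 0.55 (adjusted p = 0.937 by edgeR). The Cdh9 call also ended with finer clusters (adjusted p = 0.194 by edgeR) and with equal nuclei per fine cluster (adjusted p = 0.0737 by edgeR). Among markers of types rich in Cdh9, 7 Sst markers in Lamp5 nuclei summed to 362 and 259.6 CPM in the non-pregnant and 306 and 274 CPM in the pregnant libraries. The 6 L6 IT markers summed to 1111 and 1061 against 1363 and 1519 CPM, with 1 of the 6 higher in both pregnant libraries, 1 lower and 1 at 0. The 7 oligodendrocyte markers had 46.8 and 53.4 against 96.4 and 118 CPM, the 4 excitatory class genes 352 and 272 against 427 and 393 CPM and the 4 inhibitory class genes 4400 and 4604 against 3575 and 4130 CPM. The part of these lists in the Cdh9 value was not tested.

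In the Inpp5d cluster 1 of 13 members was called, where 0.779% of all genes were called. Pcdh9 rose from 101 and 101 CPM to 219 and 192 CPM (log2 fold change 1.00, SE 0.16, adjusted p = 0.000221 by edgeR), and its adjusted p in DESeq2 was 0.580. Pcdh9 is among the 19 members at or below the free RNA share in this cluster. The 4 excitatory class genes summed to 253 and 376 CPM in the non-pregnant and 464 and 484 CPM in the pregnant libraries of this cluster, and the 4 inhibitory class genes to 19.0 and 34.6 against 52.1 and 64.9 CPM. Their part in the Pcdh9 value was not tested. Sst and Vip interneurons, astrocytes, oligodendrocytes and their precursors had 0 members called by edgeR and by DESeq2, where 0.0673%, 0.0367%, 0.363%, 0.0841% and 0.09% of all genes were called by edgeR. In the same order 2 of 23, 0 of 24, 3 of 20, 3 of 19 and 1 of 20 members had an unadjusted p below 0.05. The shares of all genes were 6.39%, 5.05%, 7.07%, 7.88% and 6.03%.

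The group difference varied among the 7 excitatory types for 5 members in edgeR's test of this, where 4.48% of all genes passed. They were Cdh22, Cdh8, Cdh11, Pcdh19 and Pcdh11x, with adjusted p of 0.00114, 0.00136, 0.00176, 0.00215 and 0.00384 by edgeR. Without pregnant replicate 1 or 2 the count of such members was 2 or 1. Pcdh11x had -0.74 in L5 ET and -0.56 in L5 IT neurons against 0.89 in L5/6 NP neurons, and in the sum over excitatory neurons it had -0.03. Cdh8 had 0.72 in L5 IT and 0.79 in L6 CT against -0.08 in L5/6 NP neurons.

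Fine clusters nearly absent from a library held 27.1% and 19.1% of the pregnant L2/3 IT nuclei, against 5.64% and 0.058% of the non-pregnant ones, and their part in the L2/3 IT values below was not tested. Of the members in that test, Cdh22 and Cdh11 had no call in any single excitatory type. Cdh22 had 43.5 and 41.3 CPM against 28.1 and 28.2 CPM in L2/3 IT neurons (log2 fold change -0.63, adjusted p = 0.0731 by edgeR) but 5.74 and 9.81 against 14.5 and 10.46 CPM in L6 CT neurons (0.65, adjusted p = 0.469 by edgeR). Cdh11 had 0.39 in L5 ET (adjusted p = 0.0670 by edgeR) and -0.21 in L5 IT neurons (adjusted p = 0.386 by edgeR). Pcdh19 had 19.4 and 15.2 CPM against 40.6 and 33.2 CPM in L2/3 IT neurons (1.06, adjusted p = 0.136 by edgeR) and the opposite sign, 71.8 and 99.9 against 57.6 and 53.5 CPM, in L5/6 NP neurons (-0.59, adjusted p = 0.0600 by edgeR).

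**Figure D5:**
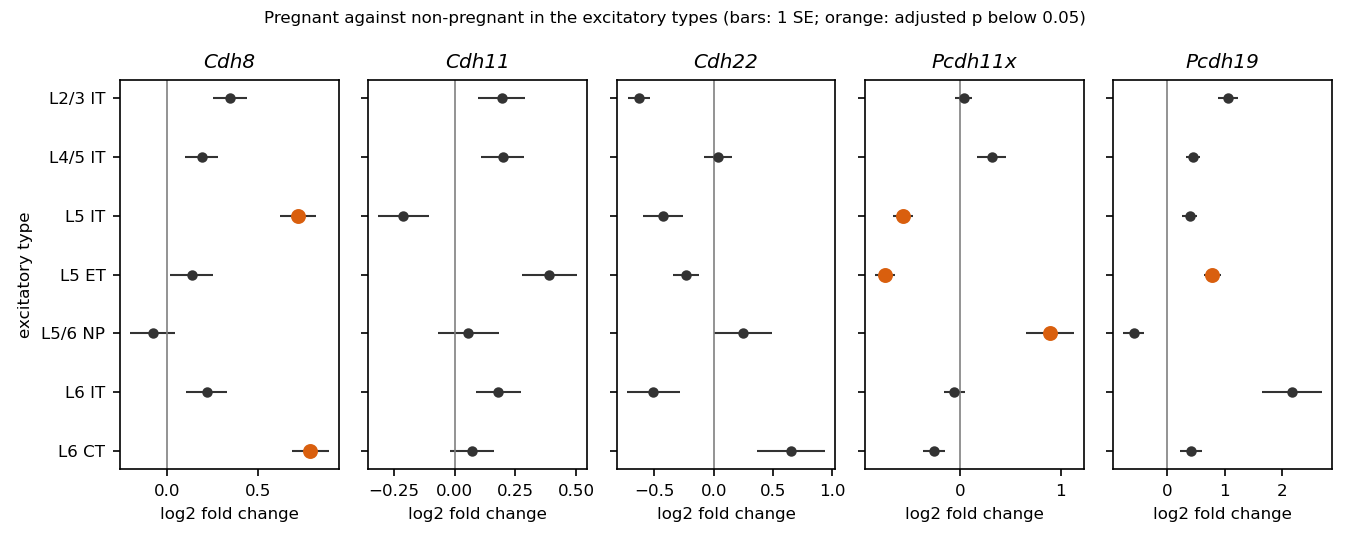
Log2 ratio of pregnant to non-pregnant libraries with 1 SE in the 7 excitatory types for the 5 members whose effect differed among them; orange points passed the adjusted p of 0.05 in edgeR within that type. Pcdh11x lies at -0.74 in L5 ET and at 0.89 in L5/6 NP neurons.

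The wider pathway was read from lists of its genes, which are described by their counts. Beside them stand the shares over all genes, 1.19% over all nuclei and 0.84% of gene-type pairs. An unadjusted p below 0.05 was reached by 12.7% of all genes over all nuclei. Of the 14 catenins and cadherin adaptors tested in the sum over all nuclei 0 were called by edgeR or DESeq2 (0 at an unadjusted p below 0.05), with a median log2 fold change of 0.03 beside 0.01 for all genes, and the smallest p was that of Arvcf, a catenin (-0.15, adjusted p = 0.527 by edgeR). Over the 15 types 1 pair of this list rose and 2 fell of 198 (1.52%), namely Magi2, a scaffold, in the Inpp5d cluster (1.62) and Ctnna3, an alpha catenin, in L5/6 NP neurons (-0.53) and astrocytes (-1.90). Of the 9 WAVE complex genes 0 were called over all nuclei by edgeR or DESeq2 (0 at an unadjusted p below 0.05), and 1 of 134 pairs (0.746%) rose, Cyfip2 in L5 ET neurons (0.40). Of the clustered protocadherins 0 of 57 were called over all nuclei and 0 of 338 pairs within types by edgeR or DESeq2, with 1 and 13 at an unadjusted p below 0.05. Over all nuclei Pcdhga1 had the smallest p (-0.41, adjusted p = 0.285 by edgeR).

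Among the large cadherin relatives 1 of 15 was called over all nuclei. Dchs2, a giant cadherin that pairs with Fat proteins, had a log2 fold change of 0.83 over all nuclei (SE 0.14, adjusted p = 0.0228 by edgeR), 1.93 in excitatory neurons (adjusted p = 0.00569 by edgeR) and 1.62 in L5 ET neurons (adjusted p = 0.000367 by edgeR). Fat3 fell in L6 IT neurons (-0.49, adjusted p = 0.0369 by edgeR), the other call among 136 pairs (1.47%, beside 0.84% of all gene-type pairs).

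The last list holds genes known for graded expression between cortical areas. Over all nuclei 2 of 13 rose, Tshz2, a zinc-finger factor (log2 fold change 2.62, SE 0.19, adjusted p = 0.0109 by edgeR), and Etv1, an ETS factor of layer 5 (1.15, SE 0.10, adjusted p = 0.00197 by edgeR), with a list median of 0.08. Over the 15 types 10 of 114 pairs rose and 1 fell (9.65%, beside 0.84% of all gene-type pairs), and DESeq2 called 7. Etv1 rose in L5 IT (0.67) and L5 ET neurons (1.22), Lmo3 fell in L5 IT neurons (-1.18), and Rorb rose in L6 IT neurons (0.72). Tshz2 rose in L4/5 IT (1.85), L5 ET (2.52) and L6 IT neurons (3.81) and also in astrocytes (2.95) and oligodendrocytes (3.08), where Slc17a7 stood at 8.45% and 10.9% of its excitatory level. The list was chosen with earlier results of these libraries known, so it is not independent evidence of a direction. The area dissected and the pregnancy cannot be told apart in this design.

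Of the nuclei outside the named types, 2 clusters nearly limited to pregnant mice had member levels of their own. Cluster 27, led by Htr2c, Tshz2 and Slc17a6, scored highest for thalamic neuron markers. It had 1, 0, 365 and 380 nuclei in non-pregnant replicates 1 and 2 and pregnant replicates 1 and 2, and cluster 29, which scored highest for L4/5 IT markers, had 0, 0, 34 and 41. In cluster 29 Pcdh15 had 4997 and 5677 CPM in the 2 pregnant libraries, against 1577 CPM in the pregnant L4/5 IT neurons, the highest excitatory type. Cdh8 was also above every excitatory type there, at 1362 CPM against 1017 CPM, while Cdh18 had 50.6 CPM against 178 CPM in the lowest type. In cluster 27 Cdh6 had 13.8 CPM and Cdh13 9.79 CPM, below the pregnant level of every excitatory type. No comparison between groups is possible in either cluster.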

How the data were processed

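Nuclear RNA of cortex from 2 non-pregnant and 2 pregnant mice was counted by the authors with Cell Ranger 10.0.0 on GRCm39, per the submitters' processing notes, and the deposited matrices hold raw whole-number counts of UMIs per gene and barcode. Depth was 97875766 to 116860425 UMIs per library, and p-values measure the spread between 2 labelled biological replicates per group.

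Nuclei with at least 500 genes and at most 5% mitochondrial UMIs were kept (26350), the 5% of each library that scored highest against simulated doublets were removed, and 25033 were clustered with scanpy 1.11.5 (2000 variable genes without the members, 40 components, 20 neighbours, Leiden resolution 1). Types were named from marker lists, and the naming thresholds were set after the clusters were seen. Doublets were only partly removed and free RNA was not subtracted. Counts were summed per type and library and tested with edgeR 4.0.16 (quasi-likelihood, robust, TMM, minimum count 10), checked on simulated data. Whether an effect differed between types was tested in 1 edgeR model with a term for each library. Printed CPM are unscaled by TMM. Alternatives were DESeq2 1.42.0, its size factors, no filter, each library left out, a replicate block, other clusterings, no doublet filter and equal numbers of nuclei.

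The text describes in full each member of at least 20 CPM in its highest type and 4 times its median over types, every member called in any sum, the 3 next in the sum over all nuclei, and from each other list up to 4 genes with the smallest p over all nuclei and those called in at least 2 types. List genes named for a call in 1 type were chosen after their values were seen. The members and lists were chosen with earlier results of these data known. Promoter sequences came from RefSeq on GRCm38.p6, an earlier build than that of the counts.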

Additional observations from a re-analysis of the deposited data

Results flagged for a closer look

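The difference between pregnant and non-pregnant mice varied among the excitatory types for some members, by edgeR's test of this. They were Cdh22 (adjusted p = 0.00114), Cdh8 (adjusted p = 0.00136), Cdh11 (adjusted p = 0.00176), Pcdh19 (adjusted p = 0.00215) and Pcdh11x (adjusted p = 0.00384 by edgeR). Fine clusters nearly absent from a library held 39.1% and 41.0% of the pregnant L5 IT nuclei, against 3.10% and 0% of the non-pregnant ones. The group difference also varied between excitatory and inhibitory neurons for Pcdh19 (adjusted p = 0.0122 by edgeR) and Cdh20 (adjusted p = 0.0127 by edgeR). The part of the mix of types in this variation between neuron classes was not tested. The area dissected and the pregnancy cannot be told apart in this design. Pcdh15 at 5337 CPM in cluster 29, a signal outside the comparisons, comes from nuclei of pregnant mice alone.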

How the results depend on the processing

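The members called in the sum over all nuclei, 1 as reported, numbered 5 with DESeq2, 4 with no filter on low counts, 5 with the replicate block, 2 with no doublet filter and 0 with equal nuclei per cell type. Leaving out 1 library gave 0 to 9. In 2 alternatives chosen after seeing the data there were 2 (named types only) and 3 (without fine clusters nearly absent from a library). The 16 calls within types became 43 with no filter and 32 with the replicate block, 12 to 49 without 1 library, and 13 to 18 otherwise. Replicates share only a number: the correlation of same-numbered deviations was -0.11 over all nuclei, so no pairing was assumed. The members whose effect differed between excitatory and inhibitory neurons, 2 as reported, were 6 with no filter and 0 to 10 without 1 library. Those that differed among excitatory types, 5 as reported, were 15 with no filter and 1 to 11 without 1 library. No share of all genes called under each alternative stands beside these counts of members. A change in members alone therefore cannot be told from a change over all genes. The 16 members with a restricted level were 12 with no doublet filter, where no vessel type was named. Of the 19 called pairs no direction reversed. Without pregnant replicate 1, 11 of the 19 calls were lost, without pregnant replicate 2 it was 7, and without each non-pregnant library it was 2. Only 2 mice per group and, in sparse types, few UMIs limit precision.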
